A study of Caenorhabditis elegans with 6 samples.

Results

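The col- genes are numbered collagen genes of Caenorhabditis elegans, most of them cuticle collagens, and they were followed here in whole embryos of 2 strains. Members were the probe sets whose annotation holds a single symbol that begins with col- and a digit: 144 probe sets for 128 genes, out of 22548 non-control probe sets on the array. Another 17 probe sets list several symbols with a col- gene among them and were left out. RefSeq holds 159 genes named in this way (assembly WBcel235).

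The worm cuticle is a collagen coat secreted by the epidermis. The first cuticle is laid down late in embryogenesis, and a new one is built at each larval moult. Each collagen chain carries Gly-X-Y repeats, is hydroxylated and folded in the secretory pathway, is trimmed by proteases and is then joined to others by tyrosine cross-links. Different collagens are made at different stages, so that some members are known as larval, adult or dauer genes.

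The groups were N2, the wild type, and the mutant yap-1(ys38). Each had 3 biological replicates of untreated embryos obtained by bleaching gravid adults, and each replicate was run on its own Affymetrix array in 1 colour. yap-1 is the worm gene for YAP, a coactivator of transcription held back by the Hippo kinases, and the study sought its targets in cell polarity. The labels give neither the lesion of the ys38 allele nor the age of the embryos. Wild type replicate 2 was set aside by the study as an outlier. The strain test therefore used wild type replicates 1 and 3 and all 3 mutant arrays, and replicate 2 is described apart. Signal for yap-1 itself was 267, 443 and 555 in wild type and 371, 260.4 and 302 in yap-1(ys38) (log2 difference -0.32, 95% interval -1.10 to 0.45), which does not check the genotype because the position of its probes relative to the lesion is unknown. In whole embryos, fewer epidermal cells and less RNA per cell cannot be told apart.

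Values are MAS5 intensities, a probe set's brightness on a linear scale after the authors scaled each array to the same trimmed mean. Median intensity ran from 87.2 in wild type replicate 2 to 133 in yap-1(ys38) replicate 3. Markers of the embryo were present throughout: summed signal of 6 epidermal genes lay between 16145 and 20218, that of 12 maternal genes between 27496 and 42864 and that of 10 body wall muscle genes between 25609 and 57524. Yolk protein genes, which are made in the adult intestine, were unequal, at 12316, 7058, 4500, 901, 284 and 131 summed over 5 genes in wild type 2, wild type 1, yap-1(ys38) 1, 2 and 3 and wild type 3, in that order. A measure of RNA integrity, the log2 ratio of signal at the 3-prime and 5-prime ends averaged over 4 control transcripts, was 2.68, 3.64 and 3.74 in wild type 1, 2 and 3 and 2.86 to 3.07 in yap-1(ys38). What the replicate numbers in the titles stand for is not stated. Precision is limited by the small number of arrays.

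The family spanned the whole range of signal. A probe set was called bright if its mean log2 intensity over the 6 arrays was in the top 10% of the array (a geometric mean above 1608), and near background if it was in the lowest 40% (53.5 or less). By this rule 23 member probe sets (16.0%), for 20 genes, were bright, 61 were between, and 60 (41.7%) were near background. Of the 128 genes, 52 were near background at every probe set. Signals of different probe sets are not on one scale of transcript amount, so these classes say only where a signal lies on the array. The cuts fall within a continuous range, with col-147 (1784, second probe set) and col-145 (1573) on either side of the upper one and col-2 (53.7) and col-149 (53.3) on either side of the lower one.

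The highest signal of the family belonged to col-93, whose brighter probe set gave, in order of replicate number, 39974, 9557 and 39802 in wild type and 35876, 29673 and 47175 in yap-1(ys38). Its other probe set gave 28564, 6734 and 31912 in wild type and 37585, 29141 and 41740.3 in yap-1(ys38). At both, wild type replicate 2 read lowest, by a wide margin. After it came col-125, with 21973, 5041 and 21681 in wild type and 23068, 20473 and 32127 in yap-1(ys38).

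col-43 read 16306, 6767 and 15477 in wild type and 16207, 14892 and 15162 in yap-1(ys38), an even level over the 5 arrays other than wild type replicate 2. The next in order was col-165, at 9395, 3449 and 13901 in wild type and 8620.4, 9020.04 and 11263 in yap-1(ys38), the brightest member whose probe set has no flag for shared sequence in its name. Further down, col-107 read 6899, 924 and 5203 in wild type and 6287, 4719 and 9040.4 in yap-1(ys38). Signals of col-119, col-160, col-74, col-157, col-147, col-133 and col-14 complete the 12 brightest genes, with geometric means over the 6 arrays from 7956 (col-119) to 2658 (col-14).

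Among better known members, col-12, whose promoter is widely used to drive genes in the epidermis, was bright and read 2285, 622 and 3563 in the wild-type arrays numbered 1 to 3 and 4428, 2605 and 4565 in the mutant arrays numbered 1 to 3. Also bright was col-34, at 3521, 463 and 3670.1 in wild type and 3584, 3192 and 4126 in yap-1(ys38). col-17, a larval collagen that falls silent in the adult, lay just under the bright class with 1702, 614 and 1703 in wild type and 1827, 1587 and 2444 in yap-1(ys38). The probe sets of col-10 and col-13 list a second collagen beside them and those of col-7 list col-62, so these genes have no value of their own. Those that list col-13 also list col-12, and they lay between the classes, not in the bright one. The probe sets of col-12, col-34 and col-17 given here are themselves of a type that can also match other sequences.

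An adult, a dauer and a non-cuticle collagen among the fixed genes were dimmer. col-19, the standard marker of the adult cuticle, read 82.1, 236 and 44.6 in the wild-type arrays numbered 1 to 3 and 75.4, 60.5 and 40.04 in the mutant arrays numbered 1 to 3. col-2, a dauer collagen, read 66.3, 32.3 and 51.2 in wild type and 59.7, 58.5 and 62.4 in yap-1(ys38). For col-99, a transmembrane collagen outside the cuticle class, the values were 38.5, 34.9 and 70.7 in wild type and 109.9, 73.4 and 88.7 in yap-1(ys38), and its other probe set stood at 34.3 or less in every array. Most of these values lie close to 53.5 or under it, and detection calls were not used here, so presence of these transcripts cannot be read from them. Of the 60 probe sets near background, 32 stayed under 53.5 in every array and 28 exceeded it in at least 1, and the highest single value was 280.3, from col-143 in wild type replicate 2.

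**Figure D1:**
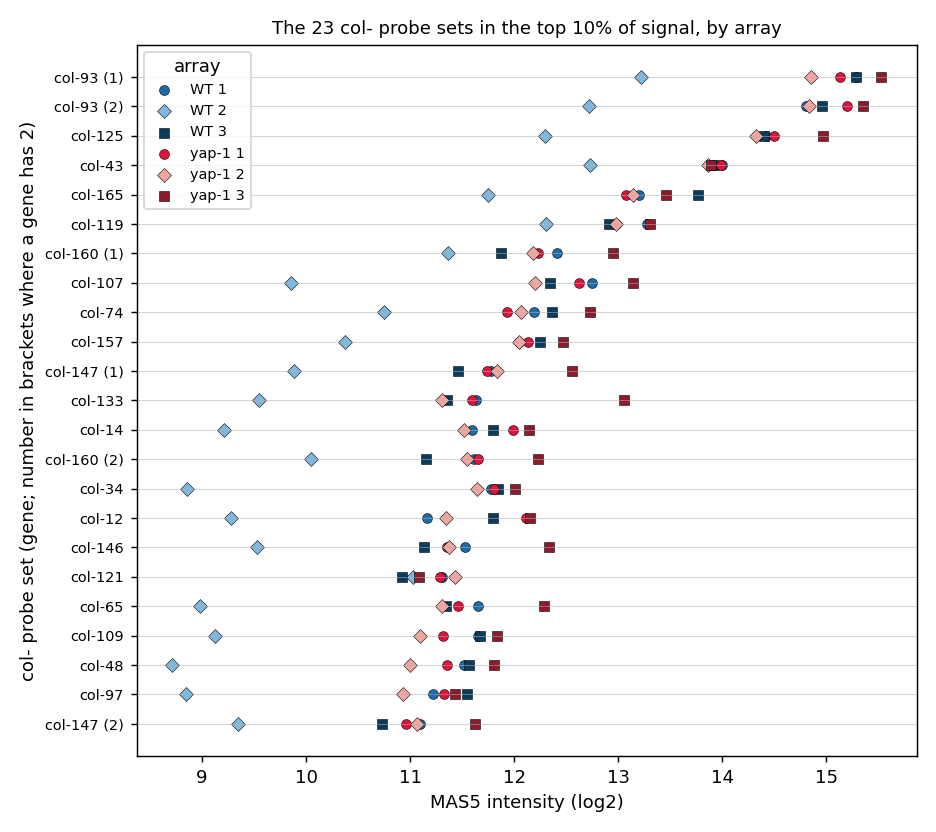
MAS5 intensity on a log2 scale (horizontal axis) of the 23 bright col- probe sets (vertical axis), 1 point for each of the 6 arrays. The light blue diamond of wild type replicate 2 lies left of all others in 22 of the 23 rows, and yap-1(ys38) replicate 3 is highest in 19.

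Collagen genes resemble one another, and the probe set names reflect this. On these arrays a name ending in _x_at marks probes that can also match other sequences, and _s_at marks probes shared by several transcripts. Of the 23 bright probe sets, 16 ended in _x_at, 1 in _s_at and 6 in _at alone (col-165, col-74, col-14, col-109, col-48 and col-97). Of all 87 members ending in _at, 6.90% were bright, against 6.87% of all probe sets on the array so named, and 55.2% were near background, against 48.0%. Of the 25 members ending in _x_at, 64.0% were bright, against 19.6% on the array. Of the 32 members ending in _s_at, 3.13% were bright, against 16.9% on the array. Most of the bright signals thus came from _x_at probe sets, which may read more than 1 collagen.

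For 16 genes several probe sets could be compared. They lay in the same class for 9 of these, col-93, col-147 and col-160 among them. The widest split was at col-157: the _x_at probe set read 4216, 1324 and 4876 in wild type and 4495, 4216 and 5685 in yap-1(ys38), whereas its _at probe set read 38.9, 20.7 and 19.2 in wild type and 24.1, 28.1 and 25.3 in yap-1(ys38). At col-119 the _x_at probe set read 9905, 5053 and 7681 in wild type and 8078, 8074 and 10112 in yap-1(ys38) and the _s_at probe set 105, 1268 and 86.3 in wild type and 106, 84.3 and 40.1 in yap-1(ys38). The first was lowest in wild type replicate 2 and the second highest there, so signals under the name col-119 are uncertain.

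Genes that lie side by side did not always share a class. In RefSeq gene order 12 pairs of measured members, made of 22 genes, are direct neighbours, and 6 of these pairs shared a class. The share among pairs that are not neighbours was not worked out, so no tendency of neighbours is read from this. The pair that follows was picked for its values. The neighbours col-39 and col-80 read 487, 41.5 and 161 in wild type and 491, 375 and 874 in yap-1(ys38) for the former and 189, 544 and 24.0 in wild type and 112, 101 and 45.3 in yap-1(ys38) for the latter. Wild type replicate 2 was thus the lowest array at one gene and the highest at the one beside it.

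The strains were compared at the 84 member probe sets (76 genes) bright enough to be tested, those above the lowest 40%. None passed the test: limma called 0 of 84 at an adjusted p under 0.05, and 0 of all 13529 probe sets tested (0.0%), with the lowest adjusted p among members at 1. The absence of a call does not show that no member changed. Unadjusted, 2 of 84 (2.38%) had p under 0.05 in limma, against 1.04% of all probe sets, and the methods' t-test at their threshold gave 1, against 1.49% of all. By sign alone 51 lay higher in yap-1(ys38) (60.7%, against 51.2% of all) and 33 lower, and the median log2 fold change was 0.09, against 0.01 over all probe sets.

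For the 23 bright members this fit gave a median log2 fold change of 0.15, with 15 higher. The values ran from -0.26 (col-165) to 0.49 (col-133), with a median standard error of 0.22, and for 20 of 23 the 95% interval lay inside a 2-fold change either way. Over all 84 this held for 47, since dimmer members were noisier, with a median standard error of 0.32. The widest interval was that of col-122, from -5.07 to 4.70. The probe sets of col-93 differed in sign, at -0.11 for the brighter and 0.24 for the dimmer.

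**Figure D2:**
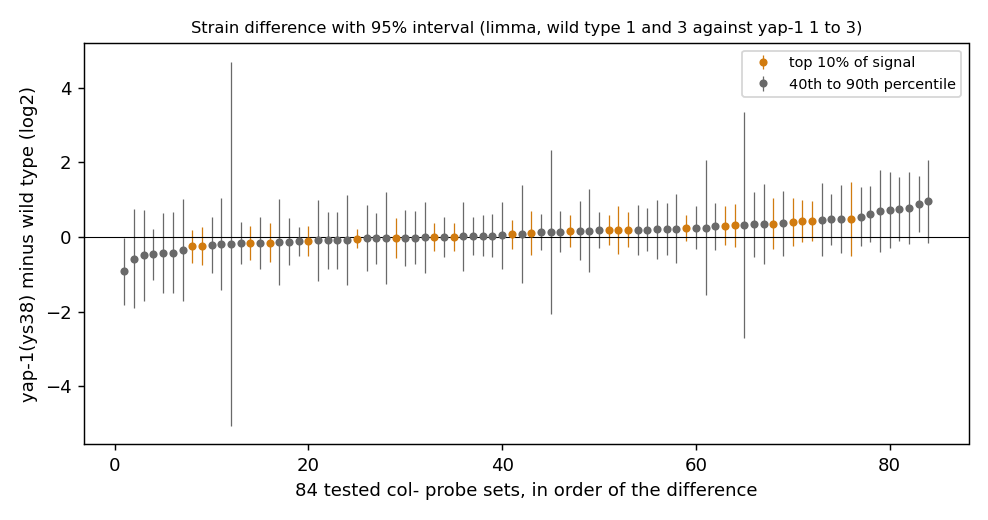
Log2 difference of yap-1(ys38) from wild type (vertical axis) at the 84 tested col- probe sets in order of size (horizontal axis), with 95% intervals from limma. Estimates run from -0.93 (col-177) to 0.96 (col-39), bright members keep within -0.26 and 0.49, and none passed the adjusted test.

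The largest positive estimate was that of col-39, which read 487 and 161 in wild type 1 and 3 and 491, 375 and 874 in the mutant (log2 fold change 0.96, SE 0.49). Wild type replicate 3 read low and the groups overlapped. Leaving out the wild-type array numbered 3 gave a log2 fold change of 0.16, and leaving out the one numbered 1 gave 1.76. col-63 read 186 and 99.98 in wild type 1 and 3 and 287, 225 and 249 in the mutant, with all mutant arrays above both wild-type arrays (log2 fold change 0.89, SE 0.33, unadjusted p = 0.0263 in limma, adjusted p = 1). Its log2 fold change became 1.34 on leaving out wild type replicate 1 and 0.44 on leaving out wild type replicate 3.

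At the next positions were col-99 (0.78, SE 0.43), col-159 (0.75, SE 0.38), col-103 (0.72, SE 0.45) and col-91 (0.70, SE 0.49). Of these, col-103 read 216 and 190.2 in wild type 1 and 3 and 193, 299 and 649 in the mutant, so that its estimate came mostly from yap-1(ys38) replicate 3. Without that array its log2 fold change was 0.25. Leaving out yap-1(ys38) replicate 1 gave 1.12. For col-159 and col-91 the log2 fold changes were 0.29 and 0.12 on leaving out wild type 3, 1.22 and 1.28 on leaving out wild type 1, and 0.41 and 0.31 on leaving out yap-1(ys38) replicate 3. For col-99 the value was 0.34 on leaving out wild type 1 and 1.22 on leaving out wild type 3.

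At the other end lay col-177, at 79.7 and 128 in wild type 1 and 3 and 55.2, 55.3 and 49.5 in the mutant (log2 fold change -0.93, SE 0.40, unadjusted p = 0.0451 in limma, adjusted p = 1). Its mutant values lie at the filter intensity, so the size is uncertain, and wild type replicate 2 read 35.1, below all of them. Without wild type replicate 3 its log2 fold change was -0.58. col-20 (-0.58, SE 0.59), col-71 (-0.50, SE 0.53), col-84 (-0.42, SE 0.47), col-140 (-0.34, SE 0.60) and col-165 (-0.26, SE 0.19) followed, each with overlapping groups. For col-165, wild type replicate 3 alone exceeded every mutant array.

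In all, 6 member probe sets had their 3 mutant arrays above both wild-type arrays (7.14%, against 5.9% of all probe sets): those of col-63, col-99, col-89, col-131, col-51 and col-72. The reverse held for col-177 and col-76 (2.38%, against 4.92%). For col-131 this held only at the dimmer of its probe sets. At the brighter one wild type 1 read 268 and yap-1(ys38) replicate 2 read 256, so the groups overlapped. These 8 genes were found from their values. col-76 is the brightest, at 1769 and 1729.8 in wild type 1 and 3 and 1691, 1495 and 1668 in the mutant, a small difference in which these groups do not touch. Wild type replicate 2, which was left out there, read 1159 at col-76, below all 3 mutant arrays. With all 6 arrays its log2 fold change went from -0.11 to 0.08.

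The estimate moved with the arrays used. Within number 1 the median log2 difference of yap-1(ys38) from wild type over the 84 members was -0.06, with 33 higher. Within number 3 it was 0.39, with 67 higher, and within number 2 it was 1.39, with 70 higher. Over all 13529 probe sets the medians within numbers 1, 3 and 2 were -0.01, 0.02 and 0.04, with 6547, 7094 and 7135 higher. Among bright members the medians within numbers 1, 2 and 3 were -0.04, 1.84 and 0.37, with 8, 23 and 20 of 23 higher. Over all 2255 bright probe sets the medians in that order were 0.01, 0.02 and -0.04, with 1184, 1182 and 990 higher. With all 6 arrays 69 of 84 members lay higher in yap-1(ys38) (82.1%, against 55.5% of all; median 0.66, against 0.04) and limma again called 0, and 0.0% of all probe sets. With replicate number fitted as a block, the median was 0.16 on the study's 5 arrays and 0.66 on all 6. For the bright members it was 0.32 with the block on 5 arrays (19 of 23 higher) and 0.83 with all 6 arrays (23 of 23 higher), against 0.15 in the fit without either. Limma then called 0 members in either, against 0.0887% and 0.0% of all probe sets. Unadjusted, 16 members had p under 0.05 with this block on the 5 arrays, all higher (against 3.46% of all in either direction and 2.13% higher), and 28 on all 6 (33.3%, against 2.43% of all). The block on 5 arrays leaves 1 residual degree of freedom. There yap-1(ys38) replicate 2 is the only array numbered 2, so the estimate rests on the arrays numbered 1 and 3.

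Other genes of the cuticle pathway were described from fixed lists. Of 21 other named cuticle collagens, 18 were measured and 12 tested, and limma called 0 in either direction (8 higher, 4 lower, median 0.03). The body-shape collagen dpy-14 had a log2 fold change of 0.18 (SE 0.12), and rol-8, another, read 171 and 123 in wild type 1 and 3 and 107, 86.5 and 86.4 in the mutant (-0.64, SE 0.34). Of 20 genes that fold, trim or cross-link collagen, 15 of 19 measured were tested, with 0 called (8 higher, 7 lower, median 0.04). Among them were cyn-9, a cyclophilin, at 0.49 (SE 0.34) and mlt-7, a peroxidase of cross-linking, at 0.24 (SE 0.28). Of 34 cuticlins measured 27 were tested, with 0 called (9 higher, 18 lower, median -0.06), among them cutl-18 at 0.25 (SE 0.24) and cutl-6 at 0.36 (SE 0.37).

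No regulator of cuticle genes passed the test either. Of 10 tested of 11 measured, 5 lay higher and 5 lower, and 0 passed (median 0.00). nhr-23, a nuclear receptor needed for moulting, read 774 and 862 in wild type 1 and 3 and 1186, 1099 and 1105 in the mutant, with all mutant arrays above both wild-type ones (0.47, SE 0.19, unadjusted p = 0.0338 in limma, adjusted p = 1). lin-29, which switches the epidermis to adult collagens, stood at 1.28 (SE 0.70), and at -0.02 without wild type replicate 3, where it read 12.5 against at least 63.7 elsewhere. The basement membrane collagens emb-9 and let-2 were tested at -0.18 (SE 0.21) and 0.16 (SE 0.18).

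Wild type replicate 2 read low at most of the collagens. It lay below all 5 others at 64 of the 84 tested members (76.2%), against 34.7% of all probe sets. Among bright members this held for 22 of 23, against 32.2% of all bright probe sets, the exception being col-121, at 2525, 2088 and 1942 in wild type and 2500.5, 2759 and 2166 in yap-1(ys38). Against the median of the other 5 arrays the log2 difference of the 84 members had a median of -1.59, and that of the 23 bright ones -2.05, while over all tested and all bright probe sets it was -0.03 and -0.00. This is 1 array, and no test applies.

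Several members show the size of the difference. col-34 read 463 in wild type replicate 2 and at least 3192 elsewhere. col-48 read 2927, 419 and 3030.3 in wild type and 2624, 2042 and 3582 in yap-1(ys38). The difference was widest at col-89, with 123, 3.49 and 181 in wild type and 244, 186 and 196 in yap-1(ys38), and at col-91, with 2.55 against at least 65.1. Both low values lie far under the filter intensity, so their size is uncertain. Among bright members col-119 and col-160 moved least after col-121, as in the plot of the 23 bright probe sets. Together the 23 made up 0.338% of the summed signal in this array and 1.01% to 1.48% in the others.

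**Figure D3:**
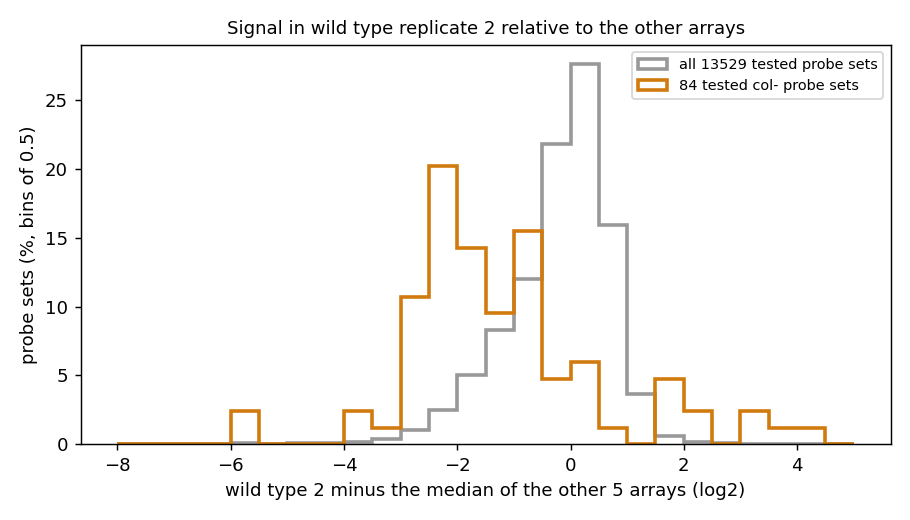
Log2 difference of wild type replicate 2 from the median of the other 5 arrays (horizontal axis, bins of 0.5) as a percentage of probe sets (vertical axis), for all 13529 tested probe sets in grey and the 84 col- members in orange. The members centre on -1.59 and all probe sets on -0.03, and a small group of members lies to the right, at 1.66 and above.

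Other lists were set beside these values. The array read below the other 5 at 11 of 12 other named cuticle collagens tested, 19 of 27 cuticlins and 9 of 10 body wall muscle markers. It also did so at 6 of 15 collagen-modifying genes, 5 of 10 regulators and 3 of 6 epidermal markers. At 8 of 12 maternal markers it read above the others. Over all probe sets these shares were 34.7% below and 32.4% above. The lists of modifying genes, regulators and epidermal markers are too small to be told apart from these shares. The lists also overlap: lin-26, nhr-25, elt-3 and elt-1 are counted as regulators and as epidermal markers. Likewise dpy-7 is counted as a cuticle collagen and as an epidermal marker. The epidermal markers lin-26 (6067, 5894 and 7802 in wild type and 5990.2, 6197 and 5172 in yap-1(ys38)) and elt-1 (1270.5, 1817 and 1222 in wild type and 1286, 1041 and 1128 in yap-1(ys38)) did not read lowest there, nor did ajm-1. The other epidermal markers did: dpy-7 read 1938 there and at least 2225 elsewhere, nhr-25 2384 and at least 2491, and elt-3 1611 and at least 1717. The part of these differences in the collagen values was not tested.

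At 10 member probe sets wild type replicate 2 read above all 5 other arrays (11.9%, against 32.4% of all probe sets). They belong to col-122, col-119 (the _s_at probe set), col-184, col-140, col-80, col-124, col-181, col-19, col-106 and col-20, and none is bright. The highest ratio was at col-122, which read 444, 1302 and 3.15 in the wild-type arrays numbered 1 to 3 and 215, 64.3 and 2.59 in the mutant arrays numbered 1 to 3. col-184 read 138, 772 and 6.20 in wild type and 70.7, 79.7 and 8.60 in yap-1(ys38). For both, the arrays numbered 3 were at the floor of the signal and the arrays numbered 1 in between. Without wild type replicate 2 the geometric means of col-122 and col-184 were 34.6 and 33.4, under the filter intensity of 53.5, so both were tested only through the array in which they are highest. The other 8 lay above it without that array.

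col-140 read 266, 910.3 and 74.9 in wild type and 207, 87.2 and 76.5 in yap-1(ys38). Values of col-181 were 177, 611 and 38.2 in wild type and 217, 155 and 21.8 in yap-1(ys38), and those of col-106 350.4, 697 and 118 in wild type and 321, 184 and 119 in yap-1(ys38). col-124 read 718, 1734 and 220.5 in wild type and 547, 232 and 375 in yap-1(ys38), with wild type replicate 3 lowest.

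Yolk protein genes were set beside the 10. vit-5 read 2028, 4218 and 7.56 in wild type and 1700.1, 265 and 21.2 in yap-1(ys38), and vit-6 2083, 2393 and 68.3 in wild type and 1031, 268 and 134 in yap-1(ys38). vit-1 read 181, 549 and 4.99 in wild type and 33.5, 30.9 and 48.1 in yap-1(ys38), with replicate 3 of the mutant above replicate 1, unlike any of the 10 members. All 5 yolk genes and 15 of 22 sperm markers tested were also highest in wild type replicate 2. The lowest array was wild type replicate 3 for 5 of the 10 and yap-1(ys38) replicate 3 for the other 5. Against the median of the other 5 arrays the 10 read 3.16 to 20.2 times higher in wild type replicate 2. Summed sperm signal was 9173 in wild type replicate 2, 7391 and 7268 in the arrays numbered 1 and 1550 to 2919 in the others. The part of adult or sperm RNA in the values of the 10 members was not tested.

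**Figure D4:**
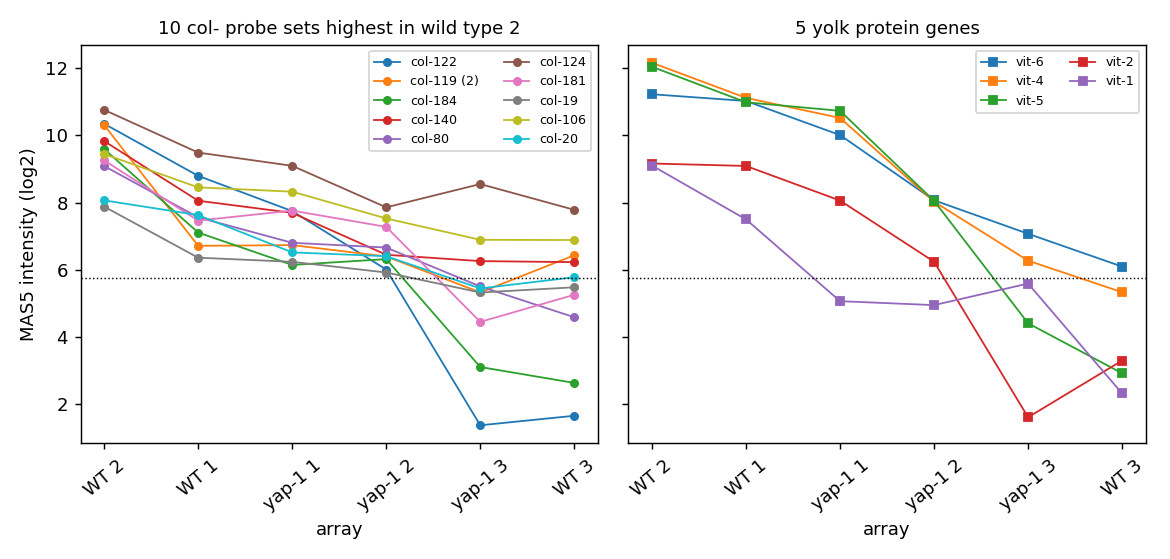
MAS5 intensity on a log2 scale (vertical axis) in the 6 arrays (horizontal axis, ordered by summed yolk signal) of the 10 col- probe sets highest in wild type replicate 2 (left) and of 5 yolk protein genes (right). Lines join the points of a probe set, the dotted line is the filter intensity of 53.5, and in both panels the signals are highest in wild type replicate 2. All 10 members are lower in the arrays numbered 3 than in those numbered 1, without overlap, against 24.6% of all probe sets. The 10 were picked by wild type replicate 2. The share among all probe sets highest in that array was not worked out, so no trait of these members is read from this.

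Arrays that share a number also share deviations from their strain means, so number 3 was set against number 1 in a model with strain and number on all 6 arrays. Limma called 0 of 84 members at an adjusted p under 0.05, and 5 of all 13529 probe sets (0.037%), all lower. Unadjusted, 7 members had p under 0.05, all lower (8.33%, against 4.44% of all probe sets). These 7 include col-122 and col-184, which passed the filter only through wild type replicate 2, so no excess is read from the share. The median log2 difference of the members was 0.05, against 0.03 over all, with 46 higher (54.8%, against 52.9% of all) and 38 lower.

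The residual spread in this fit came in part from the number 2 pair, in which wild type replicate 2 stands. With the arrays numbered 1 and 3 only, limma called 10 of 84 members (11.9%, against 6.9% of all probe sets), 7 lower (8.33%, against 3.28%) and 3 higher (3.57%, against 3.61%), on 1 residual degree of freedom. The lower ones were col-122, col-181, col-106, col-140, col-124, col-80 and col-184, and the higher ones col-130, col-145 and col-58. They are listed in rising order of their adjusted p within each direction. Median centring of the 6-array fit called 3 (3.57%, against 0.946%), all lower: col-122, col-184 and col-181. Among the 10 and among the 3 are col-122 and col-184, which were tested only through wild type replicate 2. No excess over the share of all probe sets is therefore read from these counts.

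Of the members that lay lower, col-122 and col-184 are those that passed the filter only through wild type replicate 2. col-122 had a log2 difference of -6.76 (SE 0.90, adjusted p = 0.0873 in limma, and 3.67e-07 with the arrays numbered 1 and 3 only). Differences of -3.76 (SE 0.83) for col-184, -2.76 (SE 0.57) for col-181 and -2.14 (SE 0.73) for col-80 followed. They were -1.63 (SE 0.77) for col-140, -1.50 (SE 0.51) for col-106, -1.46 (SE 0.48) for col-20 and -1.19 (SE 0.47) for col-71. For 7 of the 10 probe sets that were highest in wild type replicate 2, a number 3 array lay under 53.5, so those sizes are uncertain. Without overlap, number 3 lay below number 1 at 19 members (22.6%, against 24.6%) and above at 15 (17.9%, against 28.6%).

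Of the members that lay higher, col-130 read 599.7, 78.9 and 1134 in the wild-type arrays numbered 1 to 3 and 685, 588 and 1991 in the mutant arrays numbered 1 to 3 (1.23, SE 0.57, adjusted p = 0.692 in limma, and 0.000147 with the arrays numbered 1 and 3 only). Both number 3 arrays exceeded the rest. col-58 read 282, 53.9 and 496 in wild type and 289.9, 301 and 496 in yap-1(ys38) (0.79, SE 0.61), and col-145 1692, 323 and 2349.5 in wild type and 1668, 2097 and 3374 in yap-1(ys38) (0.75, SE 0.56). For col-103 (0.78, SE 0.48), col-133 (0.59, SE 0.41) and col-98 (0.57, SE 0.53) only the mutant pair had number 3 above number 1. col-74 (0.49, SE 0.34) and col-165 (0.48, SE 0.37), both bright, lay higher in both pairs.

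**Figure D5:**
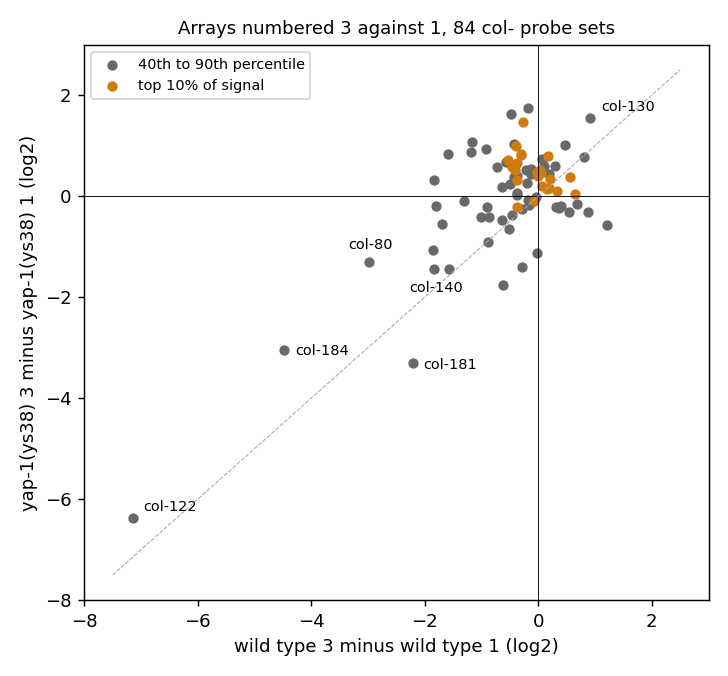
Log2 difference of number 3 from number 1 within wild type (horizontal axis) and within yap-1(ys38) (vertical axis) for the 84 tested members, bright ones in orange. col-122, col-184, col-181, col-80 and col-140 lie far below 0 on both axes, while bright members scatter between -0.54 and 0.64 in wild type and mostly above 0 in the mutant.

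The bright members were examined within each strain. In yap-1(ys38) the log2 difference of replicate 3 from replicate 1 had a median of 0.45 over the 23, with 21 higher. In wild type it was -0.02, with 10 higher. Over all 2255 bright probe sets the medians in the same order were -0.05 and 0.03, with 972 and 1214 higher. The difference between the strains in this respect was not tested. yap-1(ys38) replicate 3 was the highest of the 6 arrays at 43 of 84 members (51.2%, against 14.4% of all probe sets), and at 19 of 23 bright ones (8.60% of all bright probe sets). col-133 is the clearest of these, at 3181, 747 and 2626 in wild type and 3087, 2534 and 8522 in yap-1(ys38), with replicate 3 of the mutant far above the other 5 arrays. Without that array the median log2 fold change between the strains was 0.00 over the 84 members and -0.05 over the bright ones.

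Enzymes that hydroxylate collagen were set beside these values. phy-2, a catalytic subunit of prolyl 4-hydroxylase, read 4052, 1998 and 1413 in wild type and 3495, 1761 and 1936 in yap-1(ys38), and dpy-18, the other main one, 4569, 2603 and 1953 in wild type and 4215, 3129.9 and 2682 in yap-1(ys38). In both strains number 3 lay below number 1 (log2 differences -1.19, SE 0.23, and -0.94, SE 0.21), with adjusted p = 0.266 and 0.347 in limma. Over the 15 genes of that list 5 lay higher and 10 lower (median -0.15), and 0 passed. Over all probe sets 52.9% lay higher. For the 12 other named cuticle collagens it was 1 higher and 11 lower (median -0.22), and 0 passed. Of the 10 regulators 7 lay higher, of the 27 cuticlins 14, and of the 10 muscle markers 9 (median 0.26), with 0 passing in each. Of the 5 yolk genes 5 lay lower, 1 past the test (vit-2, -6.12, SE 0.56, adjusted p = 0.0210), and of the 22 sperm markers 22 lay lower, none past it.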

How the data were processed

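Each deposited intensity is a MAS5 signal that the authors scaled globally per the submitters' processing notes and the design text. The mean without the outer 2% at each end came to 500.1 on all arrays, which hides any change in total RNA. The sources used here give no MAS5 version. Detection calls were not used.

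Intensities were log2-transformed. Of 22625 probe sets, 77 controls were left out, and 13529 of the other 22548, above the 40th percentile of mean log2 intensity, were tested with limma 3.58.1 in R 4.3.3 (intensity trend, two-sided, Benjamini-Hochberg over all tested, threshold 0.05). Names came from the platform annotation (20766 probe sets with 1 symbol, 887 with several, 895 with none; 20701 matched RefSeq, changing 0 symbols). The tests were tried on simulated data, but the outcome is not given and no statement here rests on it. Replicates are biological per the design text.

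Deviations from the strain mean correlated at 0.364, 0.345 and 0.445 for same-numbered arrays (titles give the numbers) and at 0.015 or less otherwise. Deviations cancel within a strain, so higher values for same-numbered arrays push the others down, and the latter are no separate evidence. Numbers were taken to pair the arrays on the former, from the same values that the number comparison uses.

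Members, lists and rules were chosen with earlier results of these data known. Genes were named by rule, at their brightest tested probe set: the 12 brightest, 6 in each direction between strains, 8 in each direction between numbers, the fixed stage genes and the lowest p in each list. Genes outside it were named after their values were seen. Alternatives covered arrays, block, normalization, filter, floor, variance model, the methods' t-test, probe set type (added later) and leaving out replicates.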

Additional observations from a re-analysis of the deposited data

How the results depend on the processing

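Between the strains, 0 col- probe sets were called under every limma setting, the replicate block included, and the methods' t-test gave 1 at an unadjusted p of 0.05 (202 over all probe sets) and 0 after Benjamini-Hochberg. Calls over all probe sets were 12 with the replicate block, and 0 to 3 on leaving out a replicate. The members' median log2 fold change of 0.09 became 0.66 with all 6 arrays, with or without the replicate block, and ran from 0.00 to 0.30 on leaving out a replicate. It was 0.16 with the block on 5 arrays.

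For number 3 against number 1, calls over all probe sets (5) were 933 with the arrays numbered 1 and 3 only, 3 with no strain term, 128 with median centring, 0 with no intensity trend and 0 to 915 on leaving out a replicate. Member calls (0) were 10, 0, 3 and 0 in the same order, and 0 to 10. The members' median of 0.05 ran from -0.52 to 0.60. Without wild type replicate 2 or without yap-1(ys38) replicate 2 there were 10 member calls, since the number 2 pair then adds no residual spread.

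Bright probe sets numbered 11 at the 95th percentile and 6 with _at names only (23 in the main setting), and near-background ones 37 at the 30th percentile (60).

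With all 6 arrays, with or without the replicate block, 26 of the 84 uncalled strain estimates changed sign, 22 to higher and 4 to lower, 8 bright members among the former. Of the genes named for their strain difference, col-84 moved to 0.14 and col-165 to 0.32. Of other named members, col-93 moved from -0.11 to 0.57, col-43 from -0.04 to 0.37, col-74 from -0.03 to 0.48 and col-119 from -0.0030 to 0.26. On leaving out a replicate the ranges between strains were col-20 from -1.51 to 0.34, col-71 from -0.85 to 0.031, col-84 from -0.73 to 0.0095, col-140 from -1.26 to 0.57, col-165 from -0.54 to 0.026 and lin-29 from -0.023 to 2.58, and between numbers col-103 from -0.049 to 1.61, col-145 from -0.070 to 1.56, col-133 from -0.29 to 1.48, col-98 from -0.42 to 1.56 and col-74 from -0.064 to 1.03. The fit on all 6 arrays without the block differs from the main one only by taking in wild type replicate 2, so the 26 sign changes come with that array. What underlies the differences between arrays was not tested. Signal near background limits the sizes of dim members.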

Other observations

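Probe sets that list several collagens are no members and enter no comparison. Of 17 such probe sets 11 were bright, against 10.0% of all probe sets on the array. All 11 have names ending in _x_at, of which 19.6% were bright on the array. Several of them list the same genes, so they do not stand for 11 separate collagens. The highest, for col-94 and col-92, read 33275, 9098 and 32598 in wild type and 29311, 25733 and 41887 in yap-1(ys38). One for col-155 and col-154 read 14889, 2338 and 21099 against 19940.1, 13890.2 and 21347. As at most bright members, wild type replicate 2 was lowest and yap-1(ys38) replicate 3 highest at both. A probe set for col-179 and col-178 read 279, 1112 and 70.9 in wild type and 213, 158 and 57.3 in yap-1(ys38), highest in wild type replicate 2.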
